A study of Rattus norvegicus with 30 samples.

Results

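The genes described here are 10 well-known transcriptional targets of the tumour suppressor p53: Mdm2, Cdkn1a, Ccng1, Btg2, Gadd45a, Phlda3, Bax, Tp53inp1, Zmat3 and Sesn1. They were chosen by symbol, as the probe sets of a rat whole-genome expression array annotated to each name, and each gene was read at its brightest probe set with the others given beside it. Of the 10 genes, 8 were named by a probe set of their own, and all 8 were among the 8531 genes tested of 14217 genes on the array. Btg2 had no probe set annotated to it, and the only probe set annotated to Bax was also annotated to a second locus and is given by its probe name. The cells were primary hepatocytes of male Sprague Dawley rats, bought frozen and grown on collagen under a Matrigel overlay. The vehicle is given as 1% DMSO, in which the dosing solutions were made. On the third day of culture, wells received vehicle alone, 500 µM acetaminophen or 5000 µM acetaminophen, and RNA was taken 24 or 48 h later from 5 wells in each of the 6 groups, 1 array per well. The labels call the 5 wells of a group independent cultures but name no separate animals, and the p-values below therefore reflect variation among wells. As a model, these are isolated, purchased hepatocytes without the other cells of the liver in their normal proportions.

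p53 is a transcription factor that is kept scarce in unstressed cells by the ubiquitin ligase Mdm2 and accumulates after DNA damage and several other stresses. It then binds response elements made of a pair of 10-base motifs and raises genes that halt the cell cycle, repair DNA, limit oxidative stress or promote cell death, among them Mdm2 itself, which closes a feedback loop. In the liver these genes are also read by other stress and nutrient pathways, and their mRNAs move without p53 as well. Acetaminophen is cleared in hepatocytes mainly by conjugation, and a share of it is oxidised to a reactive quinone imine that consumes glutathione. Neither p53 protein nor DNA damage was measured in this experiment.

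Because p53 acts through a defined DNA motif, the promoters of the listed genes are shown first, so that the genes whose start regions hold the motif can be seen beside their response. RefSeq promoter windows of the GRCr8 assembly, running from 250 bases before to 50 bases after the annotated start, matched 7 of the 10 genes. Bax, Tp53inp1 and Zmat3 had no entry. The 10-base p53 motif, which reads the same on both strands, occurred in the windows of Cdkn1a, Ccng1, Gadd45a and Sesn1, and not in those of Mdm2, Phlda3 and Btg2. It occurred in 7.98% of 33469 windows of the same length, and a pair of motifs at most 13 bases apart, in 0.0598%. None of the 7 windows held a pair in which both motifs matched at every position. Pairs with a mismatch were not searched for, so a response element that holds a mismatch would be missed. The sequences before the transcribed gene follow for 3 of these genes, 5′ to 3′ on the strand of the gene, with the motif in capitals. They stand at chr20:7150682-7150819 (plus strand) for Cdkn1a, chr10:25684877-25685126 (minus strand) for Ccng1 and chr4:97486800-97487049 (minus strand) for Gadd45a. The Sesn1 window lies inside the annotated gene, and the motif at chr20:46948547-46948556 (plus strand) is shown with 10 bases on each side.
Cdkn1a: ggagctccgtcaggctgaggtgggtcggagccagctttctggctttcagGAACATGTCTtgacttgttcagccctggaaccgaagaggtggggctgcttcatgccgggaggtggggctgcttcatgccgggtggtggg
Ccng1: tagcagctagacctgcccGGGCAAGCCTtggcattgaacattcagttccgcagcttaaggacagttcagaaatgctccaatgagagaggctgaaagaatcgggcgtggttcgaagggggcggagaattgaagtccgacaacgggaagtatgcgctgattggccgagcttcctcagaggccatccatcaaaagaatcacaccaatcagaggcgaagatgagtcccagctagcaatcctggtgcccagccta
Gadd45a: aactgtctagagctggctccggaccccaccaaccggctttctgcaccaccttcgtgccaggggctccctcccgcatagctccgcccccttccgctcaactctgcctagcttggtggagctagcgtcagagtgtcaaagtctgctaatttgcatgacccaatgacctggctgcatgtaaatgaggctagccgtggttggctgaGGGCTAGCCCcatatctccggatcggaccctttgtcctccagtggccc
Sesn1: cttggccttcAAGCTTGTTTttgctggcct
The motif begins 201 bases before the annotated start in Cdkn1a, 232 bases before it in Ccng1, 48 bases before it in Gadd45a and 172 bases before it in Sesn1, counted from the start that the RefSeq window uses, which for Cdkn1a and Sesn1 lies inside the annotated gene. A match to these letters is a description of the sequence and not a measured binding site.

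The arrays read as hepatocytes in every group. The 9 hepatocyte marker genes on the array had geometric mean signals at the 99.6th percentile of probe sets or above, and their summed signal ran from 437848 to 589492 over the 30 arrays. Of the markers of other liver cells, 2 of 8 for Kupffer cells and leukocytes, 2 of 9 for stellate cells and fibroblasts, 1 of 6 for endothelium and 1 of 4 for bile duct passed the filter on low signals. Those were Lyz2 (geometric mean signal 7109), Cd68 (847.8), Acta2 (849.8), Col3a1 (567.5), Kdr (505.7) and Epcam (10780). Under it lay Ptprc of leukocytes (128.1), Lrat of stellate cells (34.17), Pecam1 of endothelium (110), and Krt19 (148.4) and Krt7 (11.86) of bile duct. The summed signal of the 4 bile duct markers, which is mostly Epcam, was 9156 to 9563 in 24 h vehicle, 8814 to 10938 at 500 µM and 24 h and 9417 to 10852 at 5000 µM and 24 h, where Epcam was called higher. After 48 h it was 13094 to 14443 in vehicle, 10810 to 11459 at 500 µM and 11821 to 12918 at 5000 µM, with Epcam called lower at both doses, and its part in the results below was not tested. RNA integrity, read as the log2 difference between the 3' and 5' control probe sets of β-actin, was not the same in all groups. After 24 h its mean was 1.78 ± 0.24 with vehicle, 1.61 ± 0.33 with the low dose and 1.37 ± 0.22 with the high dose (SD, n = 5), and 1.24 ± 0.11, 1.86 ± 0.12 and 1.21 ± 0.05 in the same order after 48 h. All 5 arrays at 500 µM and 48 h (1.74 to 2) lay above all 5 of their vehicle (1.09 to 1.34), so that at this time and dose the treatment and the ratio cannot be told apart. The same holds for vehicle at 48 against 24 h and for the doses against each other at 48 h. Each of the 3 differences was at the smallest p these arrays can give, by a two-sided exact permutation test (p = 0.00794, adjusted p = 0.0185 over 7 comparisons). A fit with the β-actin ratio as a covariate is therefore given beside results below. The same log2 difference for GAPDH had lower group means. With vehicle, the low dose and the high dose they were 0.23, 0.15 and 0.12 after 24 h and 0.11, 0.26 and 0.09 after 48 h. GAPDH was not used as a covariate.

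Read at the brightest probe sets, no comparison of acetaminophen with vehicle called more than 3 of the 8 p53 targets higher. With the mean of all probe sets, 4 were higher at 5000 µM and 24 h (1631 of all 8531 genes). Phlda3 rose after 24 h at 5000 µM and Ccng1 fell 1.92-fold after 48 h at that dose, while most other calls were small or differed between probe sets or settings. Changes are log2 differences of group means with their standard errors from limma, and calls required an adjusted p (Benjamini-Hochberg, all 8531 genes) under 0.05. In a well, fewer cells of a type and less RNA per cell cannot be told apart. At 500 µM and 24 h, none of the 8 was higher and 1 was lower (Sesn1), against 1.65% of all genes higher and 1.21% lower, and 5 members had an unadjusted p under 0.05. After 24 h at 5000 µM, 3 were higher (Phlda3, Gadd45a and Zmat3) and 2 lower (Cdkn1a and Ccng1), against 18.6% and 19.6% of all genes. After 48 h at 500 µM, 1 was higher (Cdkn1a) and 2 were lower (Tp53inp1 and Gadd45a), against 24% and 18.6%. After 48 h at 5000 µM, none was higher and 2 were lower (Ccng1 and Mdm2), against 14.6% and 18%, and the same 2 were the only members with an unadjusted p under 0.05. The median change of the 8 genes was -0.09, 0.08, -0.03 and -0.09 in these 4 comparisons, against -0.02, 0, 0.01 and -0.01 for all genes. With the ratio as a covariate, no member was called at 500 µM and 48 h and none had an unadjusted p under 0.05, while 2.49% of all genes were called higher and 1.49% lower. Both doses at a time were set against the same 5 vehicle arrays, so their values are given side by side and not as independent evidence.

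**Figure D1:**
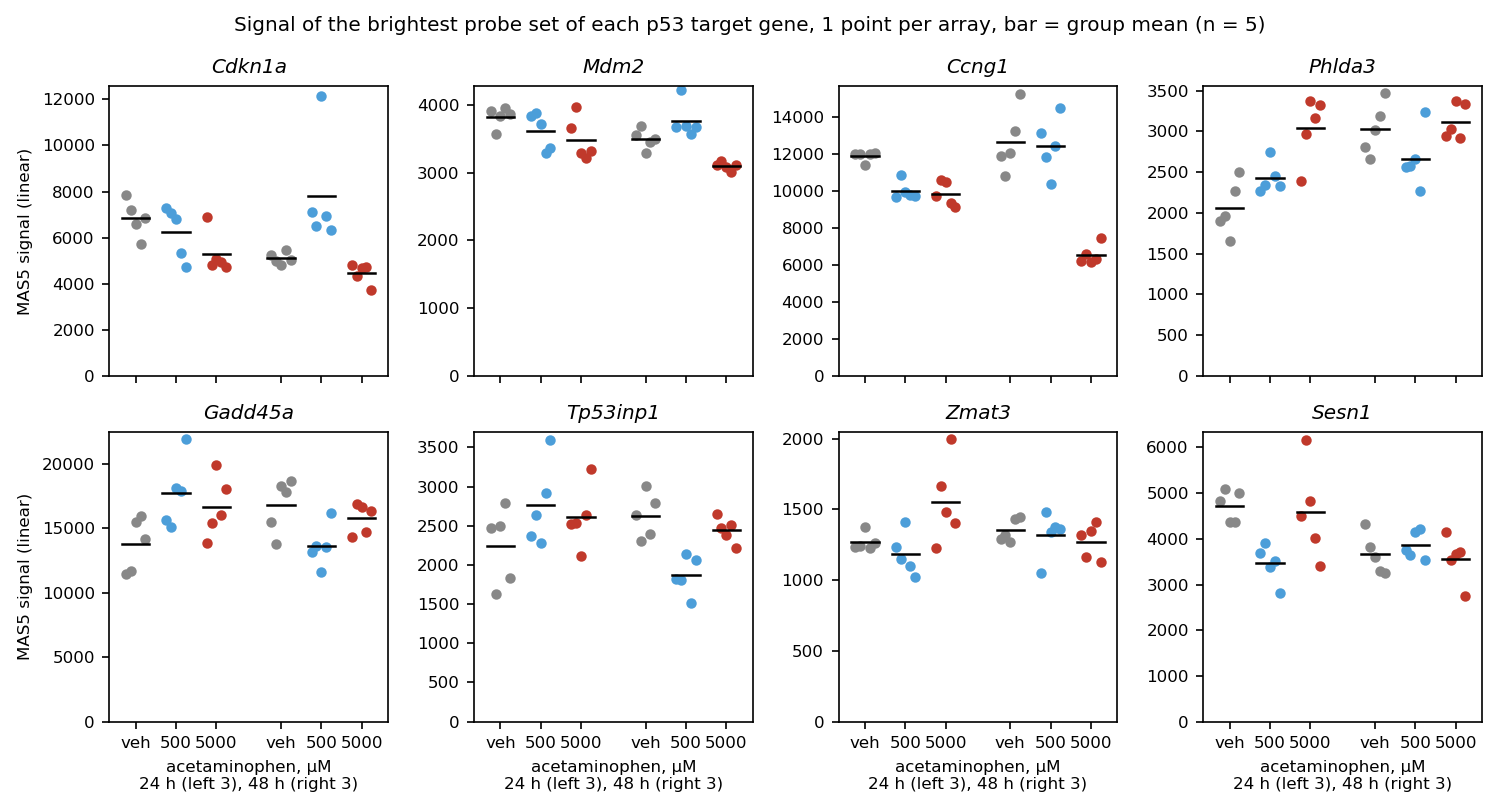
Deposited MAS5 signal (linear scale from 0) of the brightest probe set of the 8 named p53 target genes in each of the 30 arrays, by acetaminophen dose and time, with 1 point per array and a bar at the mean of the 5 arrays. Ccng1 at 5000 µM and 48 h (6167 to 7454) lies under all other arrays of that gene, while Cdkn1a at 500 µM and 48 h has 1 array at 12160 above the other 4 (6327 to 7094).

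The doses were also compared with each other. At 24 h, 5000 µM exceeded 500 µM for 3 members (Zmat3, Sesn1 and Phlda3) and was lower for none, against 16.8% of all genes higher and 14.3% lower, and the 3 called were the only ones with an unadjusted p under 0.05. At 48 h, 1 member was higher at 5000 µM (Tp53inp1) and 3 were lower (Ccng1, Cdkn1a and Mdm2), against 19.4% and 28.2%. In vehicle wells between 24 and 48 h, 2 were higher at 48 h (Phlda3 and Gadd45a) and 2 lower (Cdkn1a and Sesn1), against 13.4% and 19% of all genes. The 500 µM effect was higher at 48 than at 24 h for 2 members (Cdkn1a and Sesn1) and lower for 3 (Tp53inp1, Gadd45a and Phlda3), against 22.1% and 14.5%. The 5000 µM effect was lower at 48 h for 2 (Ccng1 and Phlda3) and higher for none, against 8.66% lower and 7.74% higher, and 4 members had an unadjusted p under 0.05. When each array was centred on its median instead of used as deposited, the split of higher and lower calls among all genes moved. It went from 141 and 103 to 43 and 8 at 500 µM and 24 h, from 1583 and 1669 to 809 and 1745 at 5000 µM and 24 h, and from 2044 and 1588 to 2324 and 432 at 500 µM and 48 h. It went from 1437 and 1222 to 592 and 1224 for 5000 against 500 µM at 24 h, from 1657 and 2407 to 760 and 2708 for that pair at 48 h, and from 1145 and 1625 to 284 and 1746 in vehicle over time. For the differences between times it went from 1886 and 1240 to 1831 and 273 at 500 µM and from 660 and 739 to 441 and 174 at 5000 µM.

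**Figure D2:**
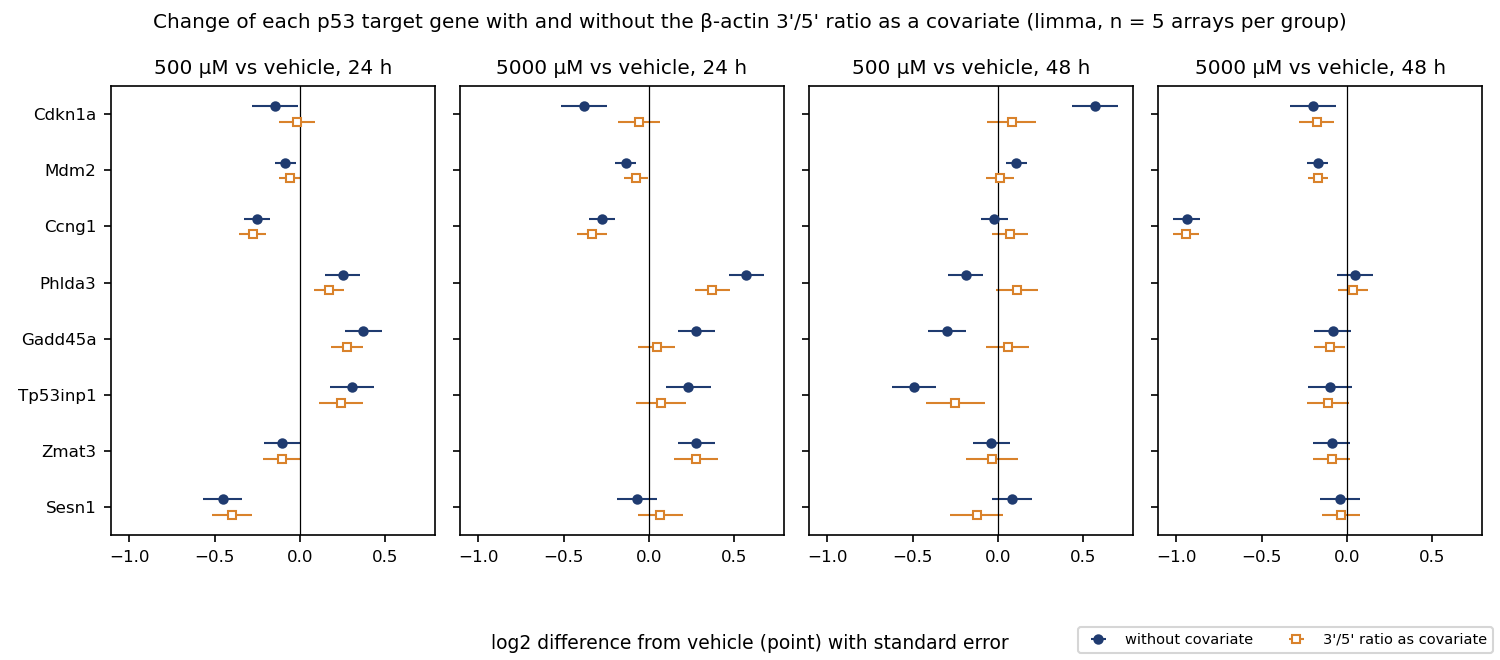
Log2 difference from vehicle (horizontal axis) of the 8 named p53 target genes in the 4 comparisons with vehicle, as limma estimates with standard errors from 5 arrays per group, without (filled circles) and with (open squares) the β-actin 3'/5' ratio as a covariate. Ccng1 at 5000 µM and 48 h stays at -0.94 and -0.95, whereas Cdkn1a at 500 µM and 48 h goes from 0.57 to 0.08.

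Mdm2 encodes the ubiquitin ligase that marks p53 for degradation and is the feedback regulator among these genes (Entrez Gene 314856, GRCr8 chr7:55176558-55201757). Its brightest probe set, 1383288_at, gave 3554, 3695, 3292, 3459 and 3498 in the 48 h vehicle arrays and 3121, 3172, 3090, 3013 and 3112 at 5000 µM. Every treated array lay below every vehicle array, although the distance was small. The mean fell from 3500 ± 146 to 3101 ± 57.9 (SD, n = 5), a log2 change of -0.17 ± 0.06 (SE, limma, adjusted p = 0.0309). Probe set 1384427_at fell further there, from 3318, 3093, 3145, 3560 and 3965 to 2589, 2713, 2699, 2709 and 2518, also with no overlap (-0.36 ± 0.07, adjusted p = 0.000332 over all probe sets, of which 11.8% were called). The third, 1383485_at, had a change of -0.43 ± 0.23 (adjusted p = 0.299). All 3 probe sets of the feedback gene thus had lower means at 5000 µM and 48 h. The brightest was called in the fit of genes but not in the limma fit over all probe sets (adjusted p = 0.0614), where only 1384427_at was called.

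At 500 µM and 48 h the Mdm2 probe sets parted. The brightest had 3677, 4222, 3694, 3572 and 3681, which overlapped vehicle and was not called (0.11 ± 0.06, adjusted p = 0.172). Probe set 1383485_at had 735.2, 602.2, 538, 638.3 and 773.4, all under the vehicle values of 977.6, 1127, 1506, 1460 and 1239 (-0.94 ± 0.23, adjusted p = 0.00442), and 1384427_at was lower by -0.23 ± 0.07 (adjusted p = 0.0188). Of all probe sets, 16.3% were called in that comparison. The log2 signal of 1383485_at changed by -1.55 ± 0.24 per unit of the β-actin ratio, and with the ratio as a covariate its value at 500 µM and 48 h was 0.02 (adjusted p = 0.986). At 24 h the brightest probe set was not called at 500 µM (-0.08 ± 0.06, adjusted p = 0.496) or at 5000 µM (-0.14 ± 0.06, adjusted p = 0.0807), and without the second 5000 µM array the latter was called (-0.19, adjusted p = 0.0171). The others had the opposite sign at 5000 µM and 24 h and were not called in the fit over all probe sets. There 1384427_at changed by 0.09 ± 0.07 (adjusted p = 0.483) and 1383485_at by 0.56 ± 0.23 (adjusted p = 0.106). With the ratio as a covariate 1383485_at was at -0.07. At 500 µM and 24 h they changed by 0.00 ± 0.07 and 0.16 ± 0.23, also not called. The call of the brightest probe set at 5000 µM and 48 h was lost without vehicle array 1 or 2 or treated array 3 or 4 (-0.17 to -0.15, adjusted p 0.0525 to 0.0785), and with median-centred or quantile-normalized arrays (adjusted p up to 0.167). Between the doses at 48 h, the brightest probe set was lower at 5000 µM (-0.28 ± 0.06, adjusted p = 0.000458) with no overlap, which became 0.03 with the mean of the 3 probe sets (where the 5000 µM effect differed between times by -0.49, adjusted p = 0.00666) and -0.18 (adjusted p = 0.136) with the ratio as a covariate.

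Cdkn1a encodes p21, an inhibitor of cyclin-dependent kinases and the textbook p53 target (Entrez Gene 114851, GRCr8 chr20:7150820-7161373). In 48 h vehicle its brightest probe set, 1388674_at, gave 5230, 4992, 4803, 5459 and 5018. At 500 µM it gave 7094, 6510, 12160, 6935 and 6327. All 5 treated arrays lay above all 5 vehicle arrays, with the third far above the rest. The mean was 5101 ± 251 in vehicle and 7806 ± 2460 at 500 µM (0.57 ± 0.14, limma, adjusted p = 0.00129), and without the third treated array the change was 0.40 and was still called. At 5000 µM and 48 h the arrays read 4824, 4314, 4681, 4736 and 3709, which overlapped vehicle (-0.20 ± 0.14, adjusted p = 0.277, 95% interval -0.48 to 0.07). This value was called in the fit of the compared groups alone (adjusted p = 0.0392) and with the mean of both probe sets (-0.26, adjusted p = 0.00656).

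After 24 h the vehicle arrays of 1388674_at read 7868, 7219, 6590, 5744 and 6833 and those at 5000 µM 6879, 4820, 5078, 4942 and 4741. Of the 5 treated arrays, 4 lay under every vehicle array and the first did not. The mean fell from 6851 ± 785 to 5292 ± 896 (-0.38 ± 0.14, adjusted p = 0.0258). That call was lost without vehicle array 1 or 2 or treated array 2, 3, 4 or 5 (-0.37 to -0.33, adjusted p 0.0501 to 0.0733), with the mean of both probe sets, and with the ratio as a covariate (-0.06, adjusted p = 0.78). The change at 500 µM and 24 h was -0.15 ± 0.14 (adjusted p = 0.597). In vehicle wells the signal was lower at 48 than at 24 h, with no overlap (-0.42 ± 0.14, adjusted p = 0.0176), which was lost without 24 h vehicle array 1 (-0.37, adjusted p = 0.0547) and came to 0.00 with the ratio as a covariate.

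The second Cdkn1a probe set, 1387391_at, went the other way where the first rose. It read, at 500 µM and 48 h, 1810, 1874, 1469, 1592 and 1580 against 2134, 2354, 2148, 1953 and 1937 in vehicle, with no overlap (-0.34 ± 0.10, adjusted p = 0.013). At 5000 µM and 48 h it was lower as well, at 1689, 1647, 1578, 1719 and 1742 (-0.33 ± 0.10, adjusted p = 0.0213), and in vehicle it was higher at 48 than at 24 h (0.32 ± 0.10, adjusted p = 0.0267). At 24 h its changes were 0.23 ± 0.10 at 500 µM (adjusted p = 0.36, where 0.635% of all probe sets were called) and 0.20 ± 0.10 at 5000 µM (adjusted p = 0.199). The log2 distance between the probe sets was 1.28 ± 0.16 in 48 h vehicle, 2.19 ± 0.50 at 500 µM and 1.40 ± 0.19 at 5000 µM. The β-actin ratio had a slope of 0.79 ± 0.17 (log2 per unit of ratio) on the brightest probe set and of -0.22 ± 0.15 on the other. With it as a covariate the values at 500 µM and 48 h were 0.08 (adjusted p = 0.823) and -0.21 (adjusted p = 0.629), and the fall of 1387391_at at 5000 µM and 48 h was unchanged at -0.33 (adjusted p = 0.0139). Between the doses at 48 h, 1388674_at was lower at 5000 µM with no overlap (-0.77 ± 0.14, adjusted p = 2.41e-05, with the covariate -0.26 and 0.245). Its 500 µM effect differed between times by 0.72 ± 0.19 (adjusted p = 0.00444), which was lost with the mean of both probe sets and with the covariate (0.10, adjusted p = 0.853). A rise of Cdkn1a at 500 µM and 48 h was therefore seen at 1 of its 2 probe sets only.

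**Figure D3:**
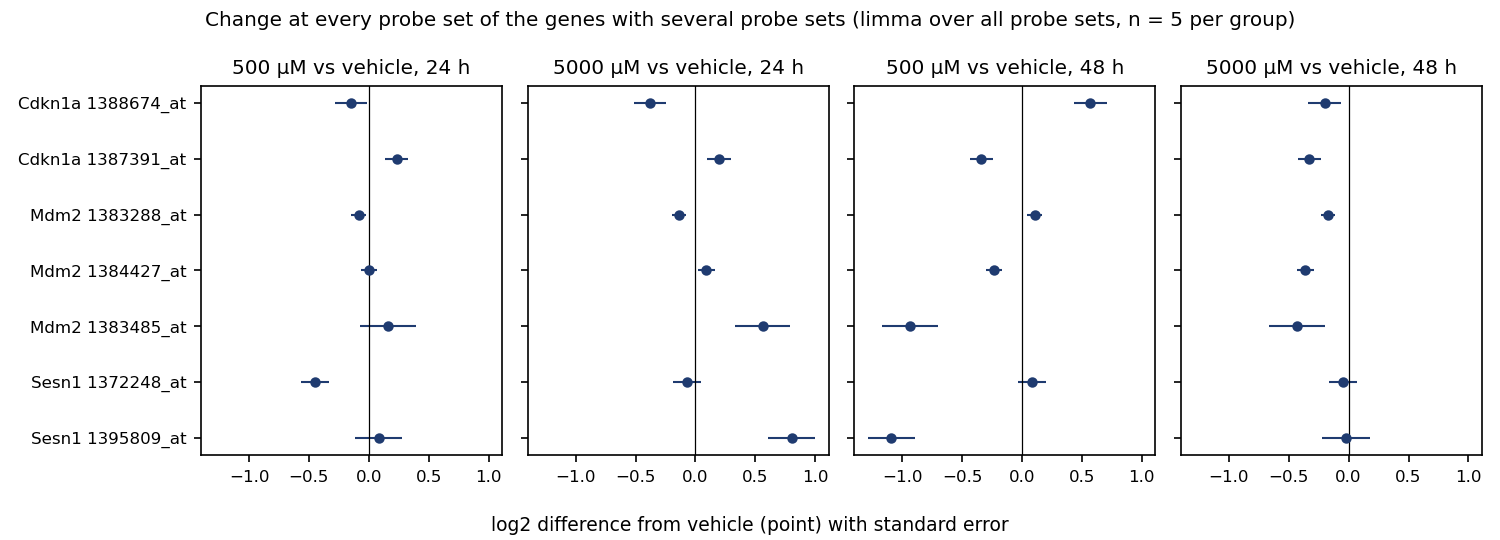
Log2 difference from vehicle with standard error (limma over all probe sets, 5 arrays per group) at each probe set of Cdkn1a, Mdm2 and Sesn1, the genes with several, in the 4 comparisons with vehicle. At 500 µM and 48 h the Cdkn1a probe sets stand at 0.57 and -0.34 and the Sesn1 probe sets at 0.08 and -1.09, while at 5000 µM and 48 h the 3 Mdm2 probe sets all stand under 0.

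Ccng1 encodes cyclin G1, a p53-induced partner of protein phosphatase 2A that takes part in the control of Mdm2 (Entrez Gene 25405, GRCr8 chr10:25678503-25684876, probe set 1367764_at). Among the brightest probe sets of the members, it gave the largest change. In 48 h vehicle the arrays read 11880, 10780, 12070, 13240 and 15220, and at 5000 µM they read 6230, 6590, 6167, 6340 and 7454. The highest treated array lay far below the lowest vehicle array. The mean fell from 12640 ± 1690 to 6556 ± 527 (SD, n = 5), a log2 change of -0.94 ± 0.08 (limma, adjusted p = 2.12e-11) and 1.92-fold lower. The 500 µM arrays at 48 h read 13110, 11810, 10390, 12410 and 14510 and overlapped vehicle (-0.02 ± 0.08, adjusted p = 0.851, 95% interval -0.18 to 0.14), so that 5000 µM was also lower than 500 µM (-0.92 ± 0.08, adjusted p = 4.68e-11).

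Ccng1 was already lower after 24 h. Vehicle arrays read 12000, 12000, 11420, 12000 and 12070, the 500 µM arrays 9664, 10840, 9943, 9802 and 9699, and the 5000 µM arrays 9725, 10590, 10490, 9343 and 9120. Both doses lay wholly under vehicle and overlapped each other. The change was -0.27 ± 0.08 at 5000 µM (adjusted p = 0.00468) and -0.25 ± 0.08 at 500 µM, which missed the threshold (adjusted p = 0.0665). The latter was called without the second 500 µM array (-0.28, adjusted p = 0.0452), with quantile normalization (-0.28, adjusted p = 0.0351) and in the fit of the compared groups alone (adjusted p = 0.0293). The doses at 24 h differed by -0.02 ± 0.08 (95% interval -0.18 to 0.14). The 5000 µM effect was larger at 48 than at 24 h (difference -0.67 ± 0.11, adjusted p = 6.29e-05). The difference between times for 500 µM (0.23 ± 0.11, adjusted p = 0.0903) was called with quantile normalization (0.28, adjusted p = 0.0428), without the third 500 µM array of 48 h (0.29, adjusted p = 0.0269) and without the fifth 48 h vehicle array (0.30, adjusted p = 0.0211). The 4 called values of Ccng1 were called under all 9 other settings and without each array in turn, and with the ratio as a covariate the change at 5000 µM and 48 h was -0.95.

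Gadd45a encodes a stress-induced protein that binds PCNA and p21 and takes part in growth arrest and DNA repair (Entrez Gene 25112, GRCr8 chr4:97484497-97486799, probe set 1368947_at). Vehicle arrays after 24 h read 11440, 11700, 15500, 15920 and 14190. At 500 µM they read 15640, 15100, 18150, 17920 and 21960, and at 5000 µM 13840, 15410, 19910, 16000 and 18080. Both doses overlapped vehicle. The 5000 µM group was called (0.28 ± 0.11, limma, adjusted p = 0.0421) and the 500 µM group, with the larger difference, was not (0.37 ± 0.11, adjusted p = 0.0576). A limma fit with sets of consecutive running numbers in the titles as a block called both doses. Its adjusted p was 0.00825 at 5000 µM and 0.0099 at 500 µM. That block was chosen after seeing the data, and the labels do not give the pairing. The difference between the doses was not called (-0.09 ± 0.11, adjusted p = 0.572, 95% interval -0.31 to 0.13). The 500 µM value was called without vehicle array 3 or 4 or treated array 1 or 2 (adjusted p 0.0316 to 0.043) and among the brightest 40% of genes (adjusted p = 0.0439). The 5000 µM call was lost without vehicle array 1, 2 or 5 or treated array 3, 4 or 5 (0.21 to 0.29, adjusted p 0.0504 to 0.149), and in 5 of 9 other settings (adjusted p up to 0.807), among them the ratio as a covariate (0.04).

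At 48 h Gadd45a read 15480, 13780, 18320, 17820 and 18650 in vehicle and 13200, 13650, 11600, 13590 and 16190 at 500 µM. Of the 500 µM arrays, 4 lay under the lowest vehicle array. The gene was lower (-0.30 ± 0.11, adjusted p = 0.0268), a call lost without vehicle array 3, 4 or 5 or treated array 3 (-0.28 to -0.24, adjusted p 0.0607 to 0.0902), with median-centred arrays, and with the ratio as a covariate, where the value was 0.06 (adjusted p = 0.854). With the block of running-number sets in limma it was called (adjusted p = 0.00484). At 5000 µM the arrays read 14300 to 16890 and the change was -0.09 ± 0.11 (adjusted p = 0.602). In vehicle the gene was higher at 48 than at 24 h (0.29 ± 0.11, adjusted p = 0.037). This too was lost without 24 h vehicle array 1 or 2 or 48 h vehicle array 3, 4 or 5 (0.23 to 0.27, adjusted p 0.0798 to 0.125) and stood at -0.01 with the covariate. The 500 µM effect differed between times by -0.67 ± 0.15 (adjusted p = 0.00138), and by -0.22 (adjusted p = 0.559) with the covariate. The difference for 5000 µM (-0.36 ± 0.15, adjusted p = 0.103) was called without the first treated 24 h array (-0.43, adjusted p = 0.0467) or the second 48 h vehicle array (-0.43, adjusted p = 0.0489).

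Phlda3 encodes a small pleckstrin-homology protein that restrains Akt signalling (Entrez Gene 363989, GRCr8 chr13:49745003-49748088, probe set 1375224_at), and was the member with the clearest rise. After 24 h the vehicle arrays read 1901, 1960, 1660, 2270 and 2497, the 500 µM arrays 2264, 2340, 2748, 2459 and 2334, and the 5000 µM arrays 2396, 2969, 3370, 3165 and 3329. Of the 5000 µM arrays, 4 lay above every vehicle array, and the first lay within their range. The mean went from 2058 ± 328 in vehicle to 2429 ± 192 and 3046 ± 396 (SD, n = 5). The change was 0.57 ± 0.10 at 5000 µM (limma, adjusted p = 4.26e-05), and 0.25 ± 0.10 at 500 µM, which was not called (adjusted p = 0.18). The rise at 5000 µM was called under all 9 other settings and without each array in turn, and with the ratio as a covariate it was 0.37 (adjusted p = 0.00672). The log2 signal of Phlda3 changed by -0.49 ± 0.14 per unit of the β-actin ratio. The doses differed from each other (0.32 ± 0.10, adjusted p = 0.0167), which was lost without the third 5000 µM array (0.28, adjusted p = 0.0529), with median-centred arrays and with the covariate (0.20, adjusted p = 0.101).

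After 48 h Phlda3 no longer differed detectably between 5000 µM and vehicle. Vehicle arrays read 2805, 2662, 3017, 3192 and 3468 and 5000 µM arrays 2940, 3028, 3374, 2917 and 3341 (0.05 ± 0.10, adjusted p = 0.783, 95% interval -0.16 to 0.26). Vehicle itself was higher at 48 than at 24 h, with no overlap (0.57 ± 0.10, adjusted p = 0.000134), and with the ratio as a covariate this was 0.31 (adjusted p = 0.127). The 5000 µM effect therefore differed between times by -0.52 ± 0.15 (adjusted p = 0.0122), while the treated means themselves were 3046 and 3120. That difference was lost with median-centred arrays and with the covariate (-0.34, adjusted p = 0.113). At 500 µM and 48 h the arrays read 2561, 2572, 2664, 2265 and 3245 (-0.19 ± 0.10, adjusted p = 0.136), which was called without the fifth (-0.26, adjusted p = 0.0419) and was 0.11 (adjusted p = 0.683) with the covariate. Without that array 5000 µM was also above 500 µM for Phlda3 (0.31, adjusted p = 0.0152, from 0.24 and 0.0578) and for Gadd45a (0.28, adjusted p = 0.0433, from 0.21 and 0.106). With the covariate both differences between the doses turned sign, to -0.08 (adjusted p = 0.719) and -0.16 (adjusted p = 0.426), so no direction is given for them. The 500 µM effect on Phlda3 differed between times by -0.44 ± 0.15 (adjusted p = 0.0178), and by -0.06 with the covariate.

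Tp53inp1 encodes a nuclear and autophagy-related protein that promotes p53 activity and cell death (Entrez Gene 297822, GRCr8 chr5:29051267-29069486, probe set 1391826_at). In 48 h vehicle the arrays read 2633, 2306, 3004, 2393 and 2795, and at 500 µM 1822, 1807, 2140, 1513 and 2066. All treated arrays lay under all vehicle arrays. The mean fell from 2626 ± 286 to 1870 ± 247 (-0.49 ± 0.13, limma, adjusted p = 0.00319), and this was called without each array in turn but not with the ratio as a covariate (-0.25, adjusted p = 0.473). At 5000 µM the arrays read 2650, 2470, 2382, 2507 and 2213, within or just under the vehicle range (-0.10 ± 0.13, adjusted p = 0.615), and lay wholly above 500 µM (0.39 ± 0.13, adjusted p = 0.0132). That difference between doses was lost without the fourth 500 µM array (0.32, adjusted p = 0.0523), with median-centred arrays and with the covariate (0.14, adjusted p = 0.646). After 24 h neither dose was called (0.31 ± 0.13 at 500 µM, adjusted p = 0.198, and 0.23 ± 0.13 at 5000 µM, adjusted p = 0.167), with single arrays from 1635 to 2796 in vehicle and from 2113 to 3594 in treated wells. The 500 µM effect differed between times by -0.80 ± 0.18 (adjusted p = 0.00141), and by -0.49 (adjusted p = 0.302) with the covariate.

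Zmat3 encodes a zinc-finger RNA-binding protein that shapes splicing and transcript stability downstream of p53 (Entrez Gene 64394, GRCr8 chr2:117034517-117066141, probe set 1387021_at). After 24 h its vehicle arrays read 1233, 1243, 1374, 1225 and 1263, its 500 µM arrays 1235, 1152, 1409, 1103 and 1026, and its 5000 µM arrays 1226, 1667, 1484, 2000 and 1404. The vehicle arrays lay close together, and 4 of the 5000 µM arrays lay above them all. The gene was higher at 5000 µM than in vehicle (0.28 ± 0.11, limma, adjusted p = 0.0389) and than at 500 µM (0.38 ± 0.11, adjusted p = 0.00601). The second of these was called in all 8 other settings that tested the gene and without each array in turn. The first was lost without vehicle array 1, 2, 4 or 5 or treated array 2, 3 or 4 (0.18 to 0.29, adjusted p 0.0501 to 0.176) and in 4 of 8 other settings, though its value with the ratio as a covariate was 0.27 (adjusted p = 0.106). After 48 h no group was called, with means of 1353 ± 81.5 (vehicle), 1323 ± 159 (500 µM) and 1273 ± 121 (5000 µM). The 5000 µM effect differed between times by -0.37 ± 0.15 (adjusted p = 0.0922), which was called without the first 5000 µM array of 24 h (-0.45, adjusted p = 0.0276).

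Bax encodes a pore-forming protein of the mitochondrial death pathway (Entrez Gene 24887, GRCr8 chr1:105076472-105081906). Probe set 1369122_at is annotated to Bax and to LOC681314, so its signal is assigned to neither. After 24 h it read 1909 to 2531 in vehicle, 1753 to 2956 at 500 µM and 2084 to 2636 at 5000 µM, and neither dose was called. After 48 h it read 2781, 3070, 2640, 2924 and 3203 in vehicle, 2742, 2334, 2094, 1911 and 2440 at 500 µM, and 2259, 2454, 2165, 1917 and 2721 at 5000 µM. In each treated group 4 arrays lay under all vehicle arrays. It was lower at both doses, by -0.35 ± 0.11 at 500 µM (adjusted p = 0.0278) and by -0.35 ± 0.11 at 5000 µM (adjusted p = 0.0349), and with the ratio as a covariate by -0.27 (adjusted p = 0.583) and -0.36 (adjusted p = 0.0298). Vehicle itself read higher at 48 than at 24 h (0.37 ± 0.11, adjusted p = 0.0248). For Btg2, an antiproliferative protein that p53 induces (Entrez Gene 29619, GRCr8 chr13:48083931-48087690), no value is given.

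Sesn1 encodes sestrin 1, a stress-induced inhibitor of mTORC1 signalling with a part in antioxidant defence (Entrez Gene 294518, GRCr8 chr20:46876918-46970010). Its brightest probe set, 1372248_at, gave the only call among the members at 500 µM and 24 h. Vehicle arrays read 4818, 5079, 4359, 4361 and 5003, and 500 µM arrays 3696, 3918, 3380, 3511 and 2818, all lower. The mean fell from 4724 ± 346 to 3464 ± 414 (-0.45 ± 0.12, limma, adjusted p = 0.027). The call was lost without vehicle array 1, 2 or 5 or treated array 5 (-0.45 to -0.38, adjusted p 0.0566 to 0.118), with median-centred arrays, with the mean of both probe sets (adjusted p up to 0.389) and with the ratio as a covariate (-0.40, adjusted p = 0.059). At 5000 µM and 24 h the arrays read 4488, 6167, 4825, 4024 and 3394, a wide spread around vehicle (-0.07 ± 0.12, adjusted p = 0.678), and were higher than at 500 µM (0.38 ± 0.12, adjusted p = 0.0111). That was lost without the second 5000 µM array (0.27, adjusted p = 0.0616) and with median-centred arrays (adjusted p = 0.0763), and was 0.46 (adjusted p = 0.00299) with the covariate. At 48 h the means were 3659 ± 435 in vehicle, 3858 ± 305 at 500 µM and 3563 ± 516 at 5000 µM, with no call. In vehicle the signal was lower at 48 than at 24 h (-0.37 ± 0.12, adjusted p = 0.0139), but was -0.20 (adjusted p = 0.506) with the covariate.

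The other Sesn1 probe set, 1395809_at, moved more and with other signs. It read 577.4, 568.9, 695.3, 769.2 and 765 in 24 h vehicle and 635.7, 1329, 1383, 1449 and 1280 at 5000 µM, where 4 of 5 arrays lay above all vehicle arrays (0.80 ± 0.20, adjusted p = 0.00379, with 15.9% of all probe sets called). In 48 h vehicle it read 1378, 1270, 1186, 1227 and 1215, at 500 µM 588.4, 596.4, 414.8, 695.3 and 698.4, and at 5000 µM 1252, 1036, 1273, 1189 and 1469. The 500 µM arrays lay wholly under vehicle (-1.09 ± 0.20, adjusted p = 0.000219) and the 5000 µM arrays did not (-0.02 ± 0.20, adjusted p = 0.98). In vehicle it was higher at 48 than at 24 h (0.91 ± 0.20, adjusted p = 0.0024), opposite to the brightest probe set. Its log2 signal had r = -0.91 with the β-actin ratio over the 30 arrays, which share groups and cultures, against 0.33 for the brightest, and its slope on the ratio was -1.27 ± 0.22. With the ratio as a covariate its changes were 0.29 (adjusted p = 0.33) at 5000 µM and 24 h and -0.31 (adjusted p = 0.619) at 500 µM and 48 h. The 500 µM effect differed between times by 0.53 ± 0.16 (adjusted p = 0.0116) at the brightest probe set, which was 0.27 (adjusted p = 0.554) with the covariate, and by -1.17 at the other. At 500 µM and 24 h 1395809_at was not called in the fit over all probe sets (0.08 ± 0.20, adjusted p = 0.94), with the opposite sign to the brightest. Between the doses at 48 h it was higher at 5000 µM (1.07 ± 0.20, adjusted p = 0.000142), against -0.12 at the brightest. Between the doses at 24 h both probe sets were higher at 5000 µM, with 1395809_at at 0.72 ± 0.20 (adjusted p = 0.0129). No direction is given for Sesn1 in the comparisons where its probe sets disagreed.

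Relatives of the members are named next because they belong to the same protein families. Gadd45b, a paralogue of Gadd45a that responds to cytokines and stress, rose at 5000 µM at both times (0.53 ± 0.08, limma adjusted p = 3.39e-06, and 0.39 ± 0.08, adjusted p = 0.000305), with every treated array above every vehicle array. Its mean signal went from 3430 ± 290 to 4951 ± 353 at 24 h and from 3847 ± 331 to 5028 ± 377 at 48 h (SD, n = 5). Gadd45g rose at 24 h (0.36 ± 0.14, adjusted p = 0.0427). Ccng2, a cyclin that marks cells leaving the cycle and is a known target of FoxO factors, ran opposite to Ccng1: it rose at 5000 µM at 24 h (0.62 ± 0.11, adjusted p = 3.1e-05) and at 48 h (0.39 ± 0.11, adjusted p = 0.00517), from 3359 ± 482 to 5174 ± 884 and from 3934 ± 511 to 5164 ± 559. Btg1, an antiproliferative relative of Btg2, rose at both times (0.30 ± 0.07, adjusted p = 0.000784, and 0.35 ± 0.07, adjusted p = 0.000157), and Btg3 at 24 h (0.43 ± 0.08, adjusted p = 5.66e-05). With the ratio as a covariate Gadd45b, Ccng2 and Btg3 were called in the same direction at 24 h, while Btg1 (0.17, adjusted p = 0.0732) and Gadd45g (0.28, adjusted p = 0.228) were not.

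Among the sestrins, Sesn3, which like Sesn1 restrains mTORC1, rose at 5000 µM from 683.1 ± 55.1 to 1175 ± 144 at 24 h (0.78 ± 0.13, adjusted p = 1.8e-05) and from 612 ± 145 to 812.1 ± 45.1 at 48 h (0.44 ± 0.13, adjusted p = 0.00955). Its other probe set changed by -0.09 and -0.04 and was not called. Sesn2, induced by the ATF4 stress pathway as well as by p53, was lower at 5000 µM and 48 h (-0.33 ± 0.13, adjusted p = 0.0444, other probe set -0.03) and higher at 500 µM and 48 h (0.43 ± 0.13, adjusted p = 0.00718, other probe set 0.49). Phlda2 rose with Phlda3 at 5000 µM and 24 h (0.56 ± 0.14, adjusted p = 0.0012), and with the covariate was 0.32 (adjusted p = 0.0865). Cdkn1b, which encodes the kinase inhibitor p27, fell at 48 h at 500 µM (-0.38 ± 0.09, adjusted p = 0.00133) and at 5000 µM (-0.36 ± 0.09, adjusted p = 0.00236), the latter unchanged with the covariate (-0.36), with its other probe set at -1.36 and -0.58 and not called. Mdm4, the Mdm2 relative that blocks p53 activity, was higher at 500 µM and 48 h (0.62 ± 0.13, adjusted p = 0.000317), with its other probe set at -0.25 and a value of 0.21 (adjusted p = 0.479) with the covariate. Tp53inp2 was higher there too (0.29 ± 0.11, adjusted p = 0.0331, other probe set -0.49), and stood at -0.02 with the covariate. No relative was called at 500 µM and 24 h.

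**Figure D4:**
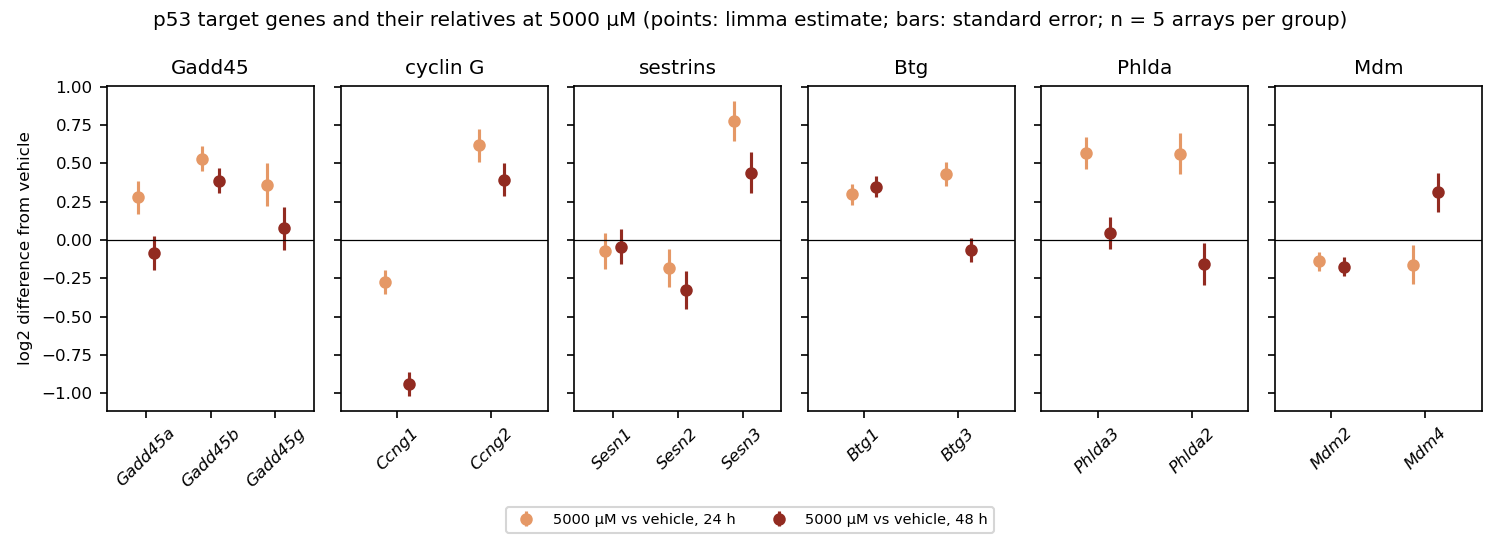
Log2 difference from vehicle with standard error (limma, 5 arrays per group) at 5000 µM after 24 h (light) and 48 h (dark) for 6 protein families, with the p53 target listed first in each panel except Btg, where Btg2 had no probe set. Ccng1 lies at -0.27 and -0.94 while Ccng2 lies at 0.62 and 0.39, and Gadd45b, Sesn3 and Btg1 lie above 0 at both times.

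Wider lists of p53-related genes, chosen by function, were counted in the same fit. Of 17 further targets that act on arrest and growth, 12 were tested. At 5000 µM and 24 h, 7 rose and 1 fell (all genes: 18.6% and 19.6%), with a median change of 0.33 against 0 for all genes, and with the ratio as a covariate 5 and 1 were called. The rises were Gadd45b, Gadd45g, Btg1, Btg3, Ccng2, Sesn3 and Sertad1, and the fall was Rprm, a gene known for arrest in G2 (-0.54 ± 0.12, adjusted p = 0.000404). After 48 h, 4 rose and 4 fell (all genes: 14.6% and 18%), with a median of 0.11. The largest fall of any listed gene was that of Sfn, which encodes the 14-3-3 sigma protein, from 3174 ± 603 in vehicle to 1343 ± 163 (-1.23 ± 0.15, adjusted p = 8.8e-08), and Rprm fell by -0.65 ± 0.12 (adjusted p = 4.8e-05). Every treated array of Sfn and of Rprm lay under every vehicle array. Of the 20 listed death-related targets, 13 were tested, of which 5 rose and 2 fell at 24 h (all genes: 18.6% and 19.6%) and 5 rose and 4 fell at 48 h at 5000 µM (all genes: 14.6% and 18%).

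Single genes of the death list moved far. Dram1, a lysosomal protein tied to autophagy, rose at 5000 µM and 24 h from 625.2 ± 97.6 to 1282 ± 220 (1.03 ± 0.11, adjusted p = 7.31e-09), and Casp6, an executioner caspase, rose at 48 h from 2227 ± 308 to 3374 ± 290 (0.61 ± 0.10, adjusted p = 1.11e-05). Aen, an exonuclease induced by p53, fell at 48 h from 1825 ± 190 to 1073 ± 63.3 (-0.76 ± 0.08, adjusted p = 7.1e-09), with another probe set at -0.96. Neither change was confined to 48 h. At 5000 µM and 24 h Casp6 already read 3633 ± 411 against 2370 ± 285 in vehicle, and Aen 1467 ± 122 against 1967 ± 146, both with no overlap. At 500 µM and 48 h, 4 of the 13 death genes tested were higher and 4 lower (all genes: 24% and 18.6%). Fas, the death receptor, fell at 500 µM and 48 h (-0.63 ± 0.12, adjusted p = 9.52e-05), as did Phlda2 (-0.53 ± 0.14, adjusted p = 0.00241) and Perp, a membrane protein of desmosomes (-0.46 ± 0.07, adjusted p = 1.64e-05). Other probe sets of Fas (-1.09 to 0.25) and Perp (-0.04) were not called in the same direction. None of these 3 was called with the ratio as a covariate (-0.29, -0.16 and -0.19).

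Of 9 DNA repair targets, 6 were tested. At 5000 µM, 3 rose and none fell at 24 h (median 0.28, all genes 18.6% and 19.6%) and 3 rose and none fell at 48 h (median 0.17, all genes 14.6% and 18%), and counted at an unadjusted p under 0.05 the numbers were 4 and 0, then 3 and 1. Ercc5, an endonuclease of nucleotide excision repair, rose at 48 h from 891.4 ± 127 to 1313 ± 152 (0.56 ± 0.15, adjusted p = 0.0038). Of 19 metabolic and secreted targets, 13 were tested, with 3 higher and 2 lower at 24 h and 2 higher and 2 lower at 48 h at 5000 µM, against the same 18.6% and 19.6%, then 14.6% and 18%, of all genes. Gdf15, a secreted stress hormone that other stress pathways also raise, showed the largest rise of any listed gene, from 490.6 ± 76.3 to 1141 ± 194 at 24 h (1.21 ± 0.15, adjusted p = 1.54e-07). Aldh4a1, a mitochondrial enzyme of proline breakdown, fell there (-0.74 ± 0.10, adjusted p = 5.54e-07), and Abcb1a, a drug efflux pump, fell at 24 h (-0.51 ± 0.17, adjusted p = 0.0158) and at 48 h (-0.99 ± 0.17, adjusted p = 1.9e-05). Gls2, a liver glutaminase (0.45 ± 0.11, adjusted p = 0.00253), and Dcxr, a carbonyl reductase (0.44 ± 0.10, adjusted p = 0.000508), rose at 48 h. At 5000 µM and 24 h Gls2 was also higher, with no overlap (3617 ± 362 against 2368 ± 408 in vehicle). The mean of Dcxr was lower there, with overlap (3011 ± 252 against 3415 ± 255).

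Of 21 regulators of p53, 14 were tested, with 2 higher and 3 lower at 5000 µM and 24 h (all genes: 18.6% and 19.6%) and 1 higher and none lower at 48 h (all genes: 14.6% and 18%), where 2 higher and none lower had an unadjusted p under 0.05. Hdac1, a histone deacetylase, rose at 24 h (1.05 ± 0.23, adjusted p = 0.000451, other probe set 0.50), but not with the ratio as a covariate (0.37, adjusted p = 0.0853). Usp7, the deubiquitinase of Mdm2 and p53, fell there (-0.55 ± 0.13, adjusted p = 0.00112), with its 3 other probe sets at -0.61 to 0.14 and none called lower. At 500 µM and 48 h, 4 regulators were higher and 2 lower (all genes: 24% and 18.6%). In that comparison 4 of the metabolic list were higher and none lower. The arrest list had 1 higher and 5 lower, and the repair list 1 higher and 2 lower. Hipk2 and Mapk14, kinases that act on p53, were higher at 500 µM and 48 h (0.80 ± 0.16, adjusted p = 0.000295, and 0.73 ± 0.11, adjusted p = 8.75e-06), Cyfip2 of the metabolic list was higher (0.75 ± 0.20, adjusted p = 0.00406, other probe set -0.23) and Hdac1 was lower (-0.94 ± 0.23, adjusted p = 0.0017, other probe set 0.07). With the covariate none of these 4 was called, and no gene of any of the 6 lists was called in that comparison. No listed gene was called at 500 µM and 24 h, and between 0 and 4 genes of a list had an unadjusted p under 0.05. Of 25 cell cycle genes that p53 lowers, only 4 passed the filter on low signals. None of the 4 was called against vehicle at 5000 µM, with 1 at an unadjusted p under 0.05 at each time, and their median was 0.30 at 24 h and 0.04 at 48 h.

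The members did not move as 1 group across the 30 arrays. Between pairs of members the correlation of log2 signals ran from -0.64 (Cdkn1a with Gadd45a) to 0.66 (Mdm2 with Ccng1). Cdkn1a had 0.64 with Mdm2, and Gadd45a had 0.59 with Tp53inp1 and 0.48 with Phlda3. These are descriptions over arrays that share groups, and Cdkn1a (r = 0.87), Mdm2 (0.67), Phlda3 (-0.72) and Gadd45a (-0.62) each also varied with the β-actin ratio. For the 3 members with the widest range of group means, the genes most like them in pattern among all tested were listed. Such genes were picked over the same arrays, so their changes below follow from the choice and add no separate result. Closest to Ccng1 (range 0.94) were Tmem43 (r = 0.895), Mat2a (0.889) and Tpm4 (0.887), which at 5000 µM and 48 h were lower by -1.03 ± 0.08, -0.62 ± 0.08 and -1.15 ± 0.07. Closest to Cdkn1a (range 0.77) were Vat1 (0.941), Otud5 (0.919) and Mark2 (0.918), which at 500 µM and 48 h were higher by 0.53 ± 0.11, 0.37 ± 0.08 and 0.71 ± 0.14. Closest to Phlda3 (range 0.61) were Oxa1l (0.828), Hnrnpr (0.827) and Tmed4 (0.809), which at 5000 µM and 24 h were higher by 0.32 ± 0.06, 0.42 ± 0.06 and 0.52 ± 0.08. The other members had narrower ranges of group means, of 0.55 for Tp53inp1, 0.45 for Sesn1, 0.38 for Zmat3 and Gadd45a and 0.30 for Mdm2.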

How the data were processed

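RNA from 30 wells was labelled and hybridised to 1 single-colour array each. The deposited values are linear signal intensity values, 1 per probe set, made by the authors with MAS5, per the submitters' processing notes; no version or scaling target was found there or in the labels. Trimmed means (2% at each end) ran from 1500.55 to 1500.66, which shows that arrays had been scaled before deposit, and log2 of the deposited intensity was used with no further scaling. Probe-level data were not used here, so background and summary steps cannot be varied, and the number of arrays limits the precision.

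Of 31099 probe sets, 57 controls were left out. GEO's platform annotation gave 1 symbol for 20826 probe sets, several for 436 and none for 9780, and 20758 symbols were updated through Entrez identifiers to RefSeq (GRCr8). Each of 14217 genes was read at its brightest probe set, and the brightest 60% (8531 genes, dimmest geometric mean signal 469) were tested. The 6 group means were estimated in a single limma fit (version 3.58.1, R 4.3.3) of the 30 arrays (24 residual and 7.58 prior degrees of freedom, eBayes with trend), and p-values were adjusted by Benjamini-Hochberg over all genes. A second fit covered all 31042 probe sets. The scripts were tested on simulated data. Promoter sequences and gene positions are from RefSeq (GRCr8).

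The members, gene lists and tests were chosen with earlier results of these data known. Named were all members with every probe set, their close relatives, the 4 largest rises and 4 largest falls among called list genes in each comparison with vehicle, and the 3 genes most correlated with each of the 3 members of widest range. Alternatives tried were 2 other scalings, 2 other signal filters, the mean of all probe sets, 100 added before log2, a fit of the compared groups alone, eBayes without trend, the β-actin ratio as a covariate, and leaving out each array; a block of running-number sets was added after seeing the data.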

Additional observations from a re-analysis of the deposited data

Results flagged for a closer look

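Of 72 sets of 5 arrays (each member probe set in each group), 7 held an array set apart from the other 4 by Dixon's criterion, which chance alone marks in about 1 of 20. For Cdkn1a (1388674_at), 1 array at 500 µM and 48 h read 12160 against 6327 to 7094, and 1 at 5000 µM and 24 h read 6879 against 4741 to 5078. For Mdm2 (1383288_at), 1 array at 500 µM and 48 h read 4222 against 3572 to 3694. For Ccng1, 1 vehicle array at 24 h read 11420 against 12000 to 12070, and 1 array at 500 µM and 24 h read 10840 against 9664 to 9943. For Zmat3, 1 vehicle array at 24 h read 1374 against 1225 to 1263. For Sesn1 (1395809_at), 1 array at 5000 µM and 24 h, the same array as the high Cdkn1a one, read 635.7 against 1280 to 1449.

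The effect of a dose differed between 48 and 24 h, by the interaction term in limma, in 12 cases, counted over the fit of genes and the fit of all probe sets. For 500 µM the differences (48 minus 24 h, log2) were 0.72 for Cdkn1a, 0.53 for Sesn1, -0.44 for Phlda3, -0.67 for Gadd45a and -0.80 for Tp53inp1. For 5000 µM they were -0.67 for Ccng1 and -0.52 for Phlda3. Of all genes, 22.1% were called higher and 14.5% lower for 500 µM, and 7.74% and 8.66% for 5000 µM. With the ratio as a covariate no member was called for 500 µM, and of all genes 2 were higher and 1 lower. For 5000 µM, 1 member stayed called with it (Ccng1, -0.61, adjusted p = 0.000604). At the other probe sets the 500 µM differences were -0.57 for Cdkn1a (1387391_at), -1.09 for Mdm2 (1383485_at) and -1.17 for Sesn1 (1395809_at), and the 5000 µM differences were -0.52 for Cdkn1a (1387391_at) and -0.45 for Mdm2 (1384427_at). Their adjusted p-values ran from 6.29e-05 (Ccng1) to 0.022 (Mdm2, 1383485_at).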

How the results depend on the processing

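Of 29 called values of the members, 6 were called in the same direction under all other settings that tested them (4 of Ccng1, Phlda3 at 5000 µM and 24 h, Zmat3 between the doses at 24 h), and 18 were called without each array in turn. Over all member values, including some not called in the reported fit, 11 changed sign between that fit and a planned setting while called in at least 1 of that pair. In the order 500 µM at 24 h, 5000 µM at 24 h, 500 µM at 48 h, 5000 µM at 48 h, 5000 against 500 µM at 24 and 48 h, vehicle over time, and the differences between times for 500 and 5000 µM, the members called were 1, 5, 3, 2, 3, 4, 4, 5 and 2, and without single arrays 0 to 3, 2 to 5, 2 to 4, 1 to 2, 2 to 3, 3 to 6, 2 to 4, 5 to 6 and 2 to 4. With median-centred arrays the count moved to 0 at 500 µM and 24 h, 3 at 5000 µM and 24 h, 1 at 5000 µM and 48 h, 1 between the doses at 24 h and 1 for the 5000 µM difference between times. Quantile normalization moved it to 2 at 500 µM and 24 h and 1 at 5000 µM and 48 h. No filter on low signals gave 3 at 5000 µM and 24 h, and the brightest 40% of genes, which leaves out Zmat3, gave 2 at 500 µM and 24 h. The mean of all probe sets gave 0 at 500 µM and 24 h and 2 in vehicle over time. It also moved the split of higher and lower members. That was 4 and 1 at 5000 µM and 24 h (all genes: 1631 and 1396) and 0 and 4 at 500 µM and 48 h (1440 and 1653). It was 2 and 2 between the doses at 48 h (1781 and 1890) and 0 and 4 for the 500 µM difference between times (1294 and 1332). The fit of the compared groups alone gave 2 at 500 µM and 3 at 5000 µM after 24 h. The ratio as a covariate gave 0 at 500 µM and 24 h (3 at an unadjusted p under 0.05), 2 at 5000 µM and 24 h, 0 at 500 µM and 48 h (0 unadjusted), 1 between the doses at 48 h, 0 in vehicle over time (1 unadjusted), and 0 (2 unadjusted) and 1 for the differences between times.

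The sign changed with the mean of all probe sets for Sesn1 at 5000 µM and 24 h (0.366), at 500 µM and 48 h (-0.505), between doses at 48 h (0.473), in vehicle over time (0.266) and in how 500 µM acted at 48 less 24 h (-0.32), and for Mdm2 at 500 µM and 48 h (-0.354), between doses at 48 h (0.032) and in the 500 µM difference between times (-0.379). It changed with the ratio as a covariate for Gadd45a at 500 µM and 48 h (0.057) and in vehicle over time (-0.014), and for Cdkn1a in vehicle over time (0.004). Of values called only under some other setting or without 1 array, at least 3 also turned with the covariate: Phlda3 at 500 µM and 48 h (0.112), and between the doses at 48 h Phlda3 (-0.08) and Gadd45a (-0.159). The cause was not tested. Over all genes, counts called in either direction moved by over 1.5 times with the covariate at 500 µM and 48 h (to 212 higher and 127 lower), in vehicle over time (200 and 240), between the doses at 48 h (757 and 1025) and in the differences between times (2 and 1 for 500 µM, 388 and 433 for 5000 µM). Median centring shifted the median of all genes to 0.104 at 500 µM and 48 h, -0.131 between the doses at 48 h and 0.117 in the 500 µM difference between times, so changes of that size have no settled direction there. For 500 µM at 24 h the counts were 67 and 33 with the compared groups alone, 96 and 59 without vehicle array 1, 104 and 52 without vehicle array 2, 98 and 53 without treated array 4 and 81 and 35 without treated array 5. Relatives and list genes were not refitted without single arrays. The titles carry a running number and no replicate number shared between groups, so pairing is not given by the labels. As an alternative chosen after seeing the data, sets of 6 consecutive running numbers (1 array of each group) were used as a replicate block. Of 75 pairs of arrays within a set, 31 had residual correlations over 0.1 (-0.32 to 0.43). The median was 0.06 within sets and -0.02 for pairs from different sets, and 15 of 30 arrays were closest to an array of their own set. The block lost no member call and moved the count to 3 at 500 µM and 24 h, 6 between the doses at 48 h and 3 for the 5000 µM difference between times. It added Ccng1 (-0.25, adjusted p = 0.0493) and Gadd45a (0.37, adjusted p = 0.0099) at 500 µM and 24 h, Phlda3 (adjusted p = 0.027) and Gadd45a (adjusted p = 0.0336) between the doses at 48 h, and Gadd45a in the 5000 µM difference between times (adjusted p = 0.0297).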
